A study of Parachlorella kessleri with 6 samples.

Results

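Subtilisin-like and papain-like proteases of the green alga Parachlorella kessleri were compared between cultures grown for 2 days under control conditions and under salt stress, with 3 libraries of total RNA in each group. A row of the deposited table, that is 1 assembled gene, was taken as a member when its Pfam annotation held a Peptidase_S8 domain (subtilisin type) or a Peptidase_C1 domain (papain type). By this rule 45 of 22972 rows were members, 0.196% of the table: 20 rows with Peptidase_S8, 25 with Peptidase_C1 and none with both. Neither the salt concentration nor the culture medium is given in the sources used here, no strain or mutation is named for either group, and nothing says that the replicates came from separate cultures. The p-values therefore measure the spread between these libraries, which may be technical.

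Subtilisins are serine proteases that use a catalytic triad of aspartate, histidine and serine. In bacteria many are secreted, and in plants they form a large family of mostly extracellular enzymes. Papain-like enzymes use a catalytic cysteine and are made as inactive precursors whose propeptide, the Inhibitor_I29 domain in many of them, covers the active site until it is cut off. In plants they act in the vacuole, in seed protein mobilisation, in senescence and in programmed cell death, and in animals the related cathepsins work in the lysosome.

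Of the 45 rows, 4 had been singled out because their level differed between control and salt: TRINITY_DN5182_c0_g1, TRINITY_DN4713_c2_g3, TRINITY_DN5154_c0_g5 and TRINITY_DN5154_c0_g6. The prefix TRINITY_, shared by all identifiers, is mostly left off. Their values are given as a description, without a test. The other 41 rows, 18 of subtilisin type and 23 of papain type, were taken by domain name alone and keep the test of the whole table. A Trinity cluster is the set of rows that the assembler placed in 1 graph component. Reads may pass between rows of a cluster, so its sum is given beside the singled-out rows and some of the others. The 45 rows lay in 35 clusters, 31 of them with a single member row, and 24 clusters also held rows without either domain.

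The best database matches were read as a check of the family names. Among the 45 rows, the SwissProt match named a protease in 27, another protein in 7 and was missing in 11. In 4 subtilisin and 7 papain rows a Pfam domain of another kind lay on a different predicted protein of the same assembled row, so that the row's counts may include reads of that neighbour. The best match was to a green alga in 9 of 20 subtilisin rows and in 8 of 25 papain rows. Of the other subtilisin rows, 6 matched a bacterium best and 3 an archaeon, whereas 8 papain rows matched a land plant best.

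Library totals ran from 16460455 to 24065705 counts. The first principal component held 84.4% of the variance and separated the groups, and the second, with 10.1%, set the replicate 1 libraries apart, control 1 at 43.1 and salt 1 at 13.4 against -23.7 to -4.72 for the others. Rows whose best match named Staphylococcus summed to 167 to 418 counts in control and 991 to 1197 in salt, and those naming Bacillus to 3827 to 4957 in control and 1799 to 2468 in salt. The 206 rows naming Xenopus held 1794 counts in control 2 and at most 207 in any other library. The part of such sequences in the results was not tested. Levels per library are CPM, that is counts scaled by library total and TMM factor, and levels between rows are compared only as FPKM, the authors' value per transcript length.

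The summed level of the subtilisin rows was lower in salt, mostly through 3 rows. Summed over the 20 rows, the level was 4926, 5492 and 6112 CPM in the control libraries and 1599, 1683 and 1679.6 CPM in the salt libraries. The groups did not overlap. Without the 2 rows singled out beforehand the sum was 4165 ± 594 CPM in control and 1649 ± 48.1 CPM in salt (SD, n = 3). With DN5600_c0_g1 also left out, a step chosen after its values were seen, the sum was 1502, 1231 and 1280.2 CPM in control and 1338, 1252 and 1251 CPM in salt, and the groups overlapped. The papain rows had a summed level of 2058 ± 81.4 CPM in control and 2161 ± 96.7 CPM in salt (SD, n = 3). In RNA from a whole culture, fewer cells with a transcript and less of it per cell cannot be told apart, and no test was made on these sums.

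**Figure D1:**
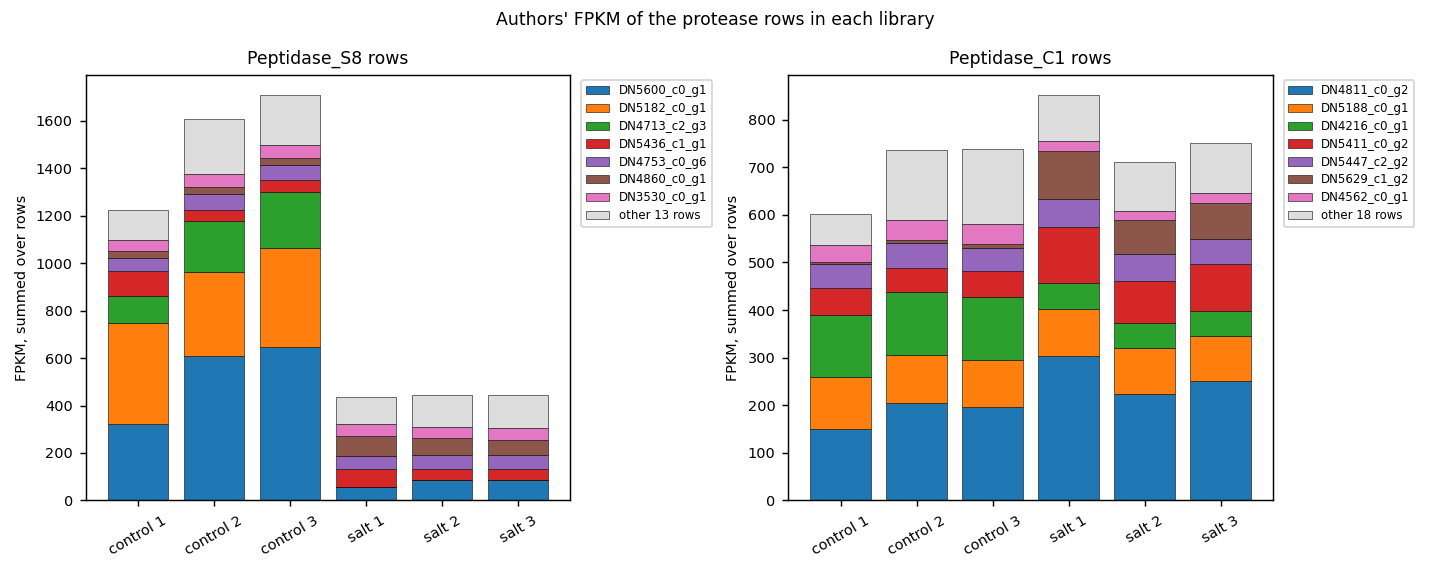
Authors' FPKM of the member rows, stacked per library, for Peptidase_S8 (left) and Peptidase_C1 (right); the y axis is the FPKM sum, and each colour is 1 row. The subtilisin sum was 1222 to 1708 FPKM in control and 434 to 445 FPKM in salt, whereas the papain sum was 601 to 737 FPKM in control and 711 to 852 FPKM in salt.

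Per length, 3 subtilisin rows made up most of the family in control and a smaller share of it in salt. DN5600_c0_g1 had the highest FPKM of the family, 527 ± 177 in control and 75.5 ± 17.2 in salt (SD, n = 3). DN5182_c0_g1 followed with 398 ± 37.0 FPKM in control and 1.31 ± 0.692 in salt, and DN4713_c2_g3 with 189 ± 63.6 in control and 0.774 ± 0.502 in salt. The intervals of DN5600_c0_g1 and DN5182_c0_g1 in control overlapped, so their order is not settled. In salt the next row after DN5600_c0_g1 was DN4860_c0_g1, a tripeptidyl-peptidase match, at 73.1 ± 8.46 FPKM, and these levels did not differ beyond their spread. DN4860_c0_g1 stood at place 10 of the family in control and at place 2 in salt, and its share of the family's FPKM was 1.62% to 2.38% in control and 14.9% to 19.0% in salt.

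TRINITY_DN5182_c0_g1, with a Peptidase_S8 domain at residues 135 to 378 of its predicted protein, best matched the thermophilic serine proteinase of a Bacillus in SwissProt and an archaeal subtilisin-type peptidase in the general protein database. Its level was 1159, 812 and 991 CPM in the control libraries and 3.22, 1.43 and 4.57 CPM in the salt libraries. Every salt library lay far under every control library, in a row singled out for that difference. Over all tested rows, salt lay under control without overlap in 32.6% and above it in 34.1%, 66.7% in all. The log2 fold change was -8.32, a mean level 321-fold lower in salt. The other rows of its cluster were an ankyrin-repeat row, with 651 to 963 counts in control and 912 to 1031 in salt, and an undescribed row with at most 4 counts. The cluster sum was 1175, 872 and 1043 CPM in control and 46.2, 43.1 and 49.4 CPM in salt. The protease row held 94.4% to 97.4% of the cluster's counts in control and 3.29% to 9.24% in salt.

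TRINITY_DN4713_c2_g3 best matched the minor extracellular protease Epr of Bacillus subtilis, a secreted enzyme, with its domain at residues 11 to 219. It stood at 252, 380.3 and 441 CPM in control and at 1.63, 0.461 and 2.13 CPM in salt, with no overlap. The log2 fold change was -7.98, a mean level 254-fold lower in salt. Its cluster of 9 rows also held rows with HEAT repeats and with PHD and methyl-CpG-binding domains. The cluster summed to 791, 972 and 1055 CPM in control and 367, 377 and 380.1 CPM in salt, a log2 fold change of -1.33.

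Of all rows of the table, 11438 had enough counts to be tested with edgeR's quasi-likelihood test, and 57.8% of them passed a Benjamini-Hochberg adjusted p of 0.05, 29.1% raised (3331 rows) and 28.7% lowered (3285 rows) in salt. With library totals alone in place of TMM factors, 4064 rows were raised and 2658 lowered, and the median log2 fold change of all tested rows moved from 0.01 to 0.20. Of the 18 subtilisin rows chosen by domain alone 15 were tested, of which 4 rose, 4 fell and 7 did not pass. That is 53.3% called, 26.7% in each direction, a share near the background. The median log2 fold change was -0.38, against that 0.01 over all tested rows. Of the 4 that rose, DN4759_c0_g3 and DN3836_c0_g1 reached the count minimum in all 3 salt libraries and in 2 of the 3 control libraries. They thus entered the test through salt, and no p is given for them. Of the 13 that reached it in both groups 2 rose and 4 fell, where the background among rows over the minimum in all libraries was 57.3% called, 29.1% raised and 28.2% lowered.

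DN5600_c0_g1 carried no description in any database, and its subtilisin domain was spread over 2 predicted proteins. Its level was 2013, 3069 and 3399.6 CPM in control and 256, 429 and 422 CPM in salt, all salt libraries under all control libraries. It fell by 2.94 on the log2 scale (SE 0.30, adjusted p = 0.000265, edgeR), and its cluster fell by 2.95 (SE 0.29).

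DN4841_c1_g7 held a subtilisin domain at residues 452 to 712 and a protein kinase domain on the same predicted protein, and SwissProt matched it to a RasGEF-domain kinase, so its name does not rest on a protease match. It stood at 77.3, 84.7 and 93.8 CPM in control and at 0.681, 1.11 and 0.871 CPM in salt. It fell by 6.58 on the log2 scale (SE 0.21, adjusted p = 1.50e-05, edgeR). Its cluster of 7 rows fell by 1.28 (SE 0.09), and the undescribed rows DN4841_c1_g3 and DN4841_c1_g4 of that cluster went from 389 to 489 and 699 to 1023 counts in control to 8 to 17 and 14 to 34 counts in salt.

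The other 2 subtilisin rows that fell were DN4797_c0_g1 and DN5725_c2_g1. DN4797_c0_g1, whose SwissProt match is a haloacid dehalogenase-like hydrolase, a domain found on another of its predicted proteins, stood at 45.4, 173 and 172 CPM in control and at 29.1, 26.3 and 37.5 CPM in salt, and fell by 2.07 (SE 0.49, adjusted p = 0.0093, edgeR). Control 1 was much nearer the salt libraries than the other controls were. DN5725_c2_g1, a thermitase match (thermitase is a heat-stable subtilase of Thermoactinomyces), stood at 21.5, 20.5 and 21.8 CPM in control and at 5.36, 6.64 and 6.27 CPM in salt, and fell by 1.80 (SE 0.16, adjusted p = 0.000147, edgeR).

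Among the subtilisin rows that rose, DN4860_c0_g1 is the match to tripeptidyl-peptidase 2, a large cytosolic enzyme that removes tripeptides from the ends of peptides, among them products of the proteasome. Its predicted protein held Peptidase_S8 at residues 82 to 560 followed by a TPPII domain. Its level was 108, 82.8 and 88.7 CPM in control and 264, 242 and 218 CPM in salt. It rose by 1.37 (SE 0.14, adjusted p = 0.000295, edgeR), and its cluster by 1.27 (SE 0.10). DN5038_c0_g1, with a Peptidase_S8 domain at residues 368 to 850 and a protease-associated domain on the same predicted protein, stood at 139, 122 and 129 CPM in control and at 221, 293 and 274 CPM in salt, and rose by 1.02 (SE 0.14, adjusted p = 0.000886, edgeR).

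DN4759_c0_g3 was matched to subtilisin J in SwissProt and to a protein named papain in the general database, although its domain is Peptidase_S8. It stood at 0.0959, 0.55 and 0.881 CPM in control and at 13.8, 26.6 and 22.1 CPM in salt. The fitted log2 difference was 5.40, given without a p because the row entered the test through salt. Its cluster of 15 rows, which includes kinase-like and kinesin rows, did not pass (-0.07, SE 0.18, adjusted p = 0.757, edgeR). DN3836_c0_g1, matched to a cell wall-associated protease, stood at 0.48, 0.9998 and 1.45 CPM in control and at 3.68, 2.40 and 3.14 CPM in salt. Its fitted log2 difference was 1.67, also given without a p. The sum of the 4 member rows of its cluster missed the threshold (0.95, SE 0.39, adjusted p = 0.0744, edgeR).

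The 7 subtilisin rows that did not pass included DN4753_c0_g6, the match to site-1 protease, a Golgi enzyme that releases membrane-bound transcription factors and in Arabidopsis acts on a bZIP factor under salt stress. It stood at 201, 207 and 213 CPM in control and at 179, 198 and 184 CPM in salt. The log2 difference was -0.15 (SE 0.10, edgeR adjusted p = 0.242), though its groups did not overlap, and with library totals it was 0.04. Its cluster of 14 rows did pass, and fell by 0.25 (SE 0.08, adjusted p = 0.0405, edgeR). DN3530_c0_g1 also showed no overlap, with 75.5 ± 1.60 CPM in control and 66.7 ± 1.35 CPM in salt (SD, n = 3) and a log2 fold change of -0.18, which was 0.00 with library totals. The log2 fold change was -0.44 in DN3701_c0_g1 (edgeR adjusted p = 0.0564), and with replicate number as a block it was -0.43 (adjusted p = 0.0229, edgeR), past the threshold. DN5436_c1_g1 stood at 688, 269 and 297 CPM in control and at 426, 239 and 275 CPM in salt, a log2 fold change of -0.41 that became 0.15 without control replicate 1. DN2769_c0_g1, a match to alkaline serine exoprotease A, stood at 2.97, 18.4 and 8.43 CPM in control and at 3.13, 2.21 and 6.45 CPM in salt, a log2 fold change of -1.34 (adjusted p = 0.134, edgeR) that became -1.77 (adjusted p = 0.0237, edgeR) without control replicate 1. The log2 fold changes of DN4782_c0_g1 and DN3677_c0_g2 were 0.15 and -0.38.

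**Figure D2:**
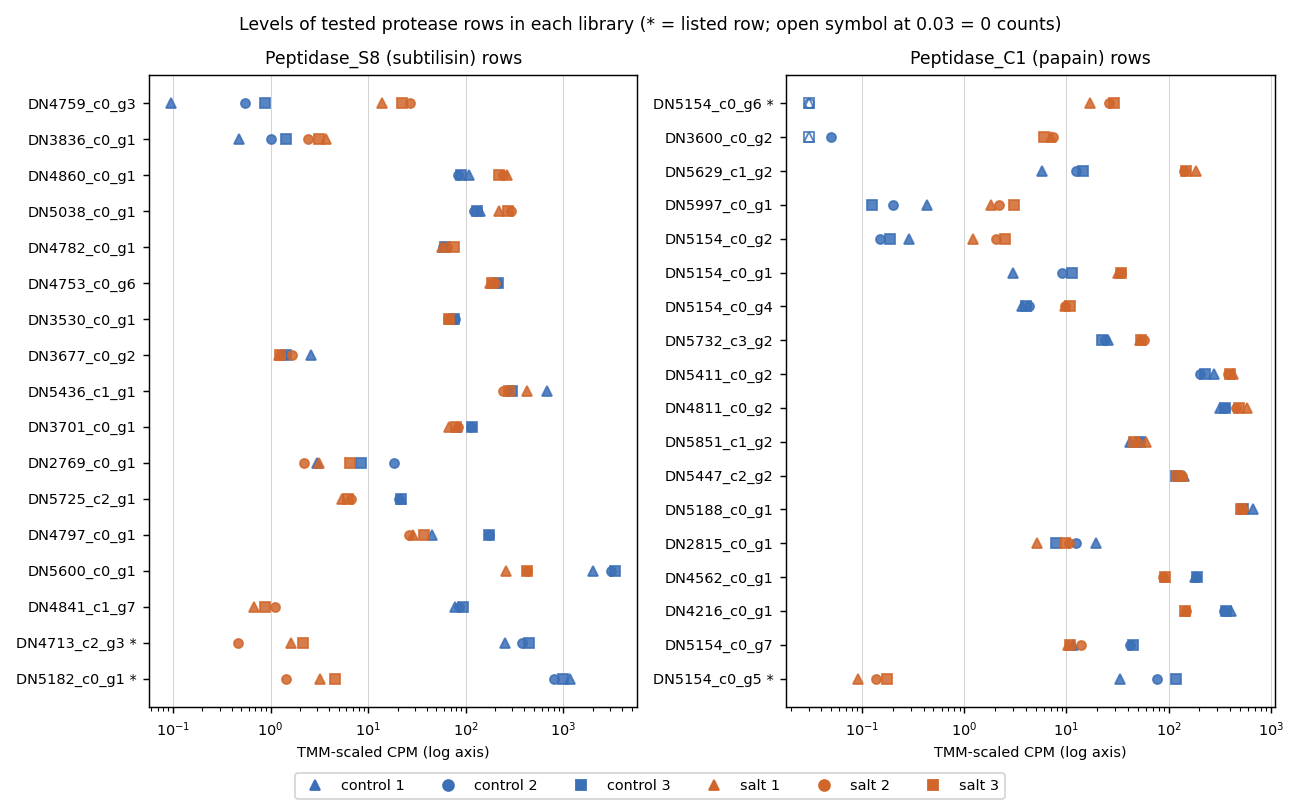
TMM-scaled CPM of every tested member row in each library on a log axis, subtilisin rows left and papain rows right, ordered by fold change; blue is control, orange is salt, the symbol gives the replicate, and open symbols at the left edge are 0 counts. DN5182_c0_g1 and DN4713_c2_g3 lie at the bottom of the left panel, and DN5154_c0_g6 and DN3600_c0_g2 at the top of the right panel, each with the groups far apart.

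Most papain rows that passed the test rose in salt. Of the 23 papain rows chosen by domain alone 16 were tested, of which 9 rose, 3 fell and 4 did not pass, and 56.2% were raised and 18.8% lowered against the background of 29.1% and 28.7%. Of the 9 that rose, DN3600_c0_g2, DN5154_c0_g2 and DN5997_c0_g1 reached the count minimum in the salt libraries alone and so had to differ. DN5154_c0_g1 and DN5154_c0_g4, also among the 9, lie in 1 Trinity cluster with DN5154_c0_g2, and reads may pass between such rows. The sum of that cluster had a log2 fold change of -0.59. Of the 13 rows over the minimum in both groups 6 rose and 3 fell, with a median log2 fold change of 0.10. No test of the difference between the families was made.

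Cluster DN5154_c0 held 6 papain rows, all with an Inhibitor_I29 propeptide domain on the same predicted protein, 29 to 34 residues ahead of the Peptidase_C1 domain. Among the rows singled out, TRINITY_DN5154_c0_g5 (SwissProt match actinidain, a kiwifruit protease) had 703, 1545 and 1875 counts in control and 2, 3 and 4 counts in salt. As CPM these are 33.7, 77.2 and 118 in control and 0.0908, 0.138 and 0.174 in salt, and the mean level was 567-fold lower in salt. TRINITY_DN5154_c0_g6 (SwissProt match vignain, a bean endopeptidase of seed and senescing tissue) had 0 counts in all 3 control libraries and 371, 564 and 674 counts in salt, or 16.8, 26.0 and 29.4 CPM. The level in salt was at least 149.6-fold higher, taking 3 counts per library as the upper limit that a count of 0 allows, which covers counting error only.

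The other 4 papain rows of the cluster were taken by domain alone. DN5154_c0_g1 was matched to EP-B 1, a barley seed protease, in SwissProt and to a KDEL-tailed endopeptidase in the general protein database. The latter type is linked to programmed cell death in plants. DN5154_c0_g1 stood at 2.97, 9.10 and 11.4 CPM in control and at 32.2, 34.5 and 34.2 CPM in salt. It rose by 2.11 (SE 0.43, adjusted p = 0.00531, edgeR). DN5154_c0_g2 stood at 0.288, 0.15 and 0.189 CPM in control and at 1.23, 2.03 and 2.53 CPM in salt. Its fitted log2 difference was 3.16, given without a p, since it reached the count minimum through salt alone. DN5154_c0_g4, matched to actinidain, stood at 3.64, 4.35 and 4.03 CPM in control and at 9.58, 9.64 and 10.8 CPM in salt, and rose by 1.32 (SE 0.19, adjusted p = 0.0012, edgeR). Salt lay above control without overlap in DN5154_c0_g1 and DN5154_c0_g4, rows of 1 cluster, as it did in 34.1% of all tested rows. The groups of DN5154_c0_g2 did not overlap either, but that row is left out of the comparison, since it was tested through salt alone. DN5154_c0_g7 was matched in SwissProt to a xylem cysteine proteinase, a type that acts in Arabidopsis xylem. Its general database match, like that of DN5154_c0_g1, was a KDEL-tailed endopeptidase. Xylem cysteine proteinases were in turn the general database matches of DN5154_c0_g4 and DN5154_c0_g6. DN5154_c0_g7 stood at 11.5, 41.9 and 44.8 CPM in control and at 10.3, 13.8 and 10.8 CPM in salt. It fell by 1.49 (SE 0.48, adjusted p = 0.0319, edgeR). Its groups overlapped, and the call was lost when control replicate 2, control replicate 3 or any 1 salt replicate was left out (adjusted p = 0.0677 to 0.1002, edgeR).

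The sum of the cluster's 9 rows hid these opposite movements. It was 51.5, 135 and 180.5 CPM in control and 70.2, 85.4 and 87.7 CPM in salt, and the groups overlapped. Of the counts of the 6 papain rows, DN5154_c0_g5 held 58.2% to 66.1% in control and 0.129% to 0.198% in salt. DN5154_c0_g6 held none in control and 24.0% to 33.4% in salt, and DN5154_c0_g1 held 5.70% to 6.85% in control and 38.9% to 45.9% in salt. Rows of 1 cluster can share sequence, and the sources used here do not say how the authors' counting divided reads between them.

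**Figure D3:**
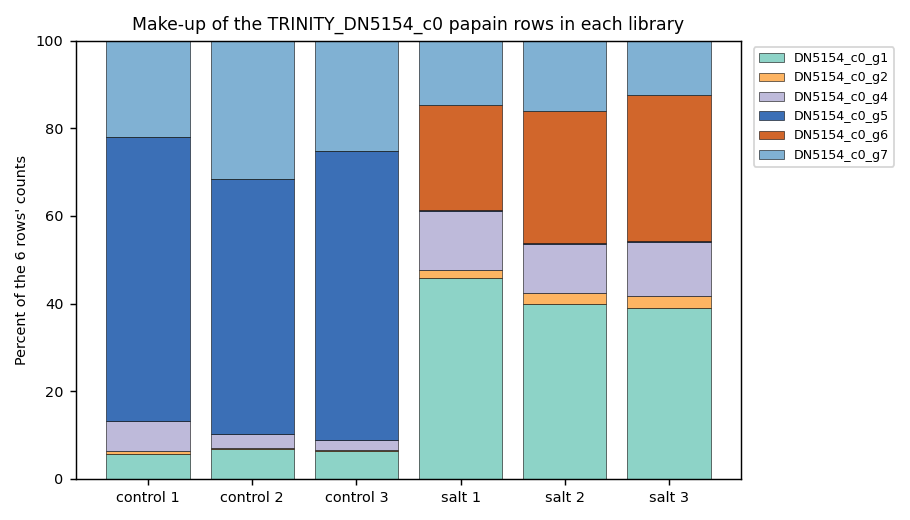
Share of the counts of the 6 DN5154_c0 papain rows held by each row, in percent, for each library; each colour is 1 row. DN5154_c0_g5 holds 58.2% to 66.1% of the bar in control, and DN5154_c0_g6 and DN5154_c0_g1 together fill most of it in salt.

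Outside that cluster, DN3600_c0_g2 had 0, 1 and 0 counts in control and 154, 159 and 138 counts in salt. The ratio of the group's counts per depth was 384, with a 95% exact binomial interval of 68.6 to 15198 that covers counting error only, and no p is given because the row reached the count minimum through salt alone. Its best match was a protein of an Emiliania huxleyi virus and its SwissProt match a cell wall glycoprotein, while its predicted protein ended in an Inhibitor_I29 and a Peptidase_C1 domain at residues 697 to 754 and 850 to 1159. DN5629_c1_g2, annotated by KEGG as cathepsin L, an endopeptidase of the animal lysosome, stood at 5.71, 12.3 and 14.5 CPM in control and at 183, 143 and 149 CPM in salt, and rose by 3.88 (SE 0.35, adjusted p = 0.000158, edgeR). Its cluster rose by 4.15 (SE 0.37). Per length it moved from place 12 of the papain rows in control, 5.61 ± 2.55 FPKM, to place 4 in salt, 83.1 ± 15.4 FPKM (SD, n = 3).

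DN5997_c0_g1, an EP-B 1 match (a barley seed protease), stood at 0.432, 0.2 and 0.126 CPM in control and at 1.82, 2.21 and 3.09 CPM in salt. Its fitted log2 difference was 3.17, from a row over the count minimum in salt alone, for which no p is given. The other 3 papain rows that rose had smaller changes. DN5732_c3_g2, a cathepsin L type match, rose by 1.17 from 24.0 ± 1.47 to 54.1 ± 2.66 CPM (adjusted p = 0.00021, edgeR). DN5411_c0_g2 rose by 0.78 from 235 ± 37.2 to 402 ± 19.6 CPM (adjusted p = 0.00347, edgeR). Its SwissProt match is the senescence-associated daylily protease SEN102, shared with DN2815_c0_g1, which did not pass (log2 fold change -0.65). The general database match of DN5154_c0_g5, a row lower in salt, is also SEN102-like. Other predicted proteins of DN5411_c0_g2 carry a serine hydroxymethyltransferase and a zinc finger domain. A serine hydroxymethyltransferase row of the same cluster, DN5411_c0_g3, ranged from 910 to 1450 counts among controls. Under salt that row ranged from 5207 to 5538. DN4811_c0_g2 had the highest FPKM of the papain rows, 184 ± 28.8 in control and 259 ± 40.8 in salt (SD, n = 3). It stood at 321, 357 and 356 CPM in control and at 581, 452 and 489 CPM in salt and rose by 0.56 (SE 0.14, adjusted p = 0.0116, edgeR), while its cluster did not pass (0.28, adjusted p = 0.131, edgeR). Its SwissProt match is a plastid ATP/ADP transporter, and a TLC domain lies on another of its predicted proteins.

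Besides DN5154_c0_g7, a pair of papain rows fell. DN4216_c0_g1 stood at 409, 349 and 365 CPM in control and at 144, 147 and 145 CPM in salt, and fell by 1.37 (SE 0.11, adjusted p = 0.000116, edgeR). DN4562_c0_g1 stood at 182, 187 and 190.2 CPM in control and at 92.2, 88.1 and 92.3 CPM in salt, and fell by 1.04 (SE 0.09, adjusted p = 0.000163, edgeR). Both rows hold a non-protease domain on another predicted protein, a peroxidase in the first and a thioredoxin in the other, and their SwissProt matches name those proteins.

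The 4 papain rows that did not pass had overlapping groups. DN5188_c0_g1, matched to oryzain alpha, a rice seed protease, had the next highest mean FPKM after DN4811_c0_g2 over the 6 libraries, and place 3 within each group, and stood at 662, 525 and 531 CPM in control and at 515, 539 and 506 CPM in salt (log2 fold change -0.14, SE 0.14, adjusted p = 0.424, edgeR), a log2 fold change that was 0.06 with library totals. DN5447_c2_g2, an aleurain match (aleurain is a vacuolar thiol protease), and DN5851_c1_g2 had log2 fold changes of 0.06 and 0.10. DN5188_c0_g1 (TPX2), DN5447_c2_g2 (NUDIX) and DN5851_c1_g2 (GDSL lipase) each hold a domain of another kind on another predicted protein. The cluster of DN5851_c1_g2 fell by 0.52 (SE 0.09, adjusted p = 0.00209, edgeR), a direction its protease row did not show. In DN2815_c0_g1, the other row with SEN102 as SwissProt match, the log2 fold change was -0.65 (edgeR adjusted p = 0.203).

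**Figure D4:**
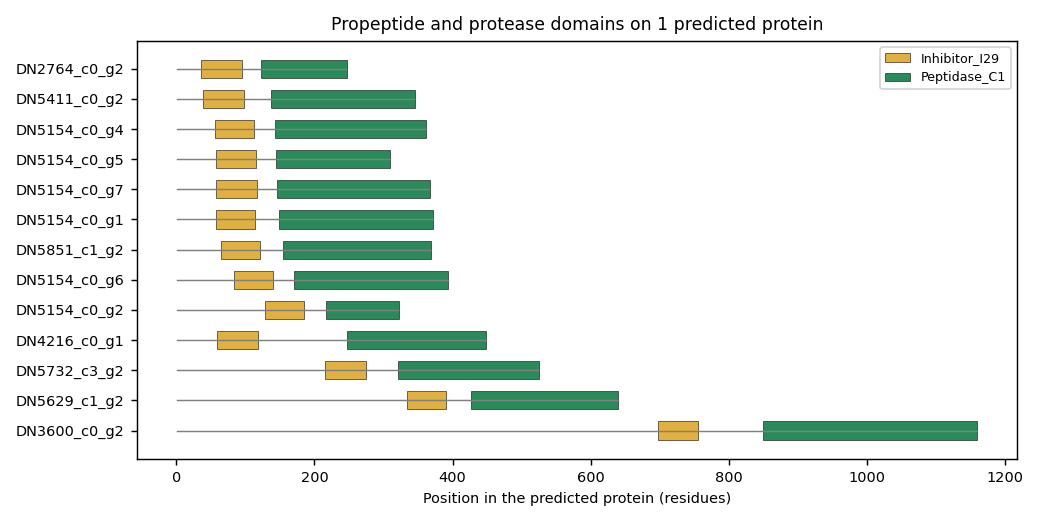
Positions, in residues from the start of the predicted protein, of the Inhibitor_I29 propeptide (gold) and the longest Peptidase_C1 hit (green) in the 13 papain rows that carry both on 1 protein. The propeptide came first in every row, and the gap to the first Peptidase_C1 hit ran from 28 to 95 residues with a median of 33.

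An Inhibitor_I29 domain lay on the same predicted protein in 13 of the 25 papain rows, on another predicted protein in 2 and nowhere in 10. All 6 papain rows of DN5154_c0 were among the 13, and so were DN3600_c0_g2 and DN5629_c1_g2. The annotated Peptidase_C1 domain spanned 29 to 310 residues over the 25 rows (median 204) and the Peptidase_S8 domain 56 to 483 residues over the 20 subtilisin rows (median 247.5). DN5154_c0_g5 had a Peptidase_C1 span of 166 residues and DN5154_c0_g6 one of 224.

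Summed by cluster, 27 of the 32 clusters without a singled-out row were tested. In salt 7 rose, 8 fell and 12 did not pass. Of all 5848 tested clusters 59.8% were called, 30.1% raised and 29.7% lowered. The median log2 fold change of the 27 tested clusters with member rows was -0.15. Row and cluster values lay close together in DN5600_c0 and DN5629_c1, and apart in DN4759_c0, DN3600_c0, DN4841_c1, DN5154_c0, DN4713_c2 and DN5182_c0. DN3600_c0, whose member row had a fitted log2 difference of 8.16, rose by 0.87 on that scale as a cluster (SE 0.26, adjusted p = 0.0232, edgeR).

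**Figure D5:**
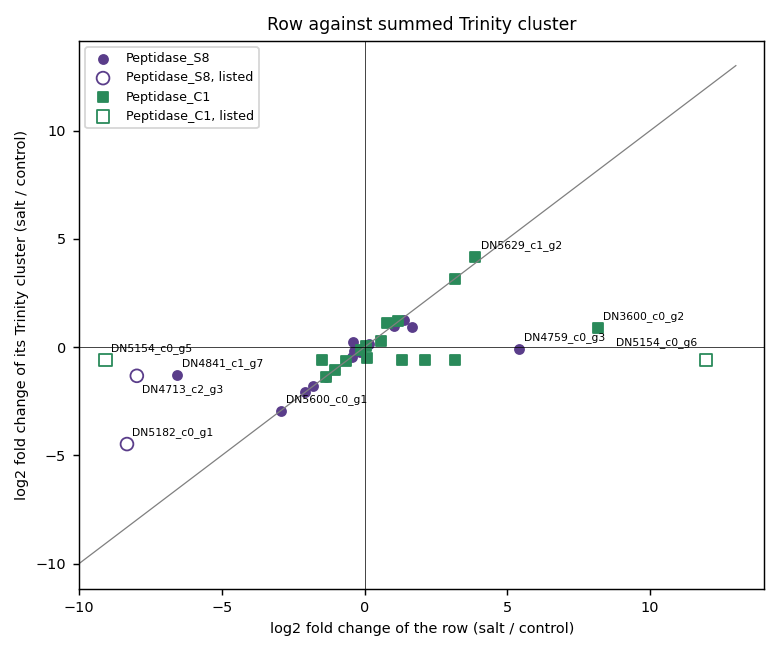
Log2 fold change of each tested member row (x axis) against that of its summed Trinity cluster (y axis), salt over control; circles are subtilisin and squares papain rows, open symbols are the rows singled out beforehand, and the line marks equal values. DN5154_c0_g5 and DN5154_c0_g6 lie at opposite ends of 1 horizontal line, since both belong to DN5154_c0; the fitted value of DN5154_c0_g6 depends on the prior count because control had 0 counts.

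The 10 untested rows had 2 to 35 counts in total over the 6 libraries. Of the 3 subtilisin rows DN3836_c0_g2 had 5, 3 and 5 counts in the control libraries against 0, 1 and 0 counts in the salt libraries, and the other 2 belong to the same cluster. Among the 7 papain rows, DN1150_c0_g1, DN2764_c0_g1 and DN2764_c0_g2 had vertebrate cathepsins as best match. They held 10, 5 and 13 counts in control 2 and at most 4 counts in any other library, and control 2 is also the library with the most counts in the rows naming Xenopus. DN2335_c0_g1 and DN2335_c0_g2 had 0 to 3 counts in the control libraries and 3 to 7 in the salt libraries. DN1563_c0_g1 and DN2600_c0_g1 had counts in 1 library each, 3 in control 2 and 2 in salt 1.

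Protease inhibitor and propeptide domains outside the member rows were found in 16 rows, of which 7 were tested. In salt 4 of them fell and 3 did not pass, with a median log2 fold change of -0.71. That is 57.1% called, against 57.8% of all tested rows, of which 28.7% were lowered. None rose by edgeR's quasi-likelihood test, by DESeq2 or at an unadjusted p under 0.05 (0 rows each), but 2 rose without a count filter, 4 with replicates 2 and 3 alone and up to 3 with 1 library left out. The smallest p was that of DN5177_c2_g1, a Werner-type helicase row that also carries Kazal and trypsin domains, which fell by 1.07 from 225 to 108 CPM (SE 0.13, adjusted p = 0.000467, edgeR). The highest FPKM was that of DN5804_c4_g4, an Inhibitor_I29 domain without a protease domain, whose level was 361 ± 74.7 CPM in control and 432 ± 104 CPM in salt (SD, n = 3; log2 fold change 0.26, adjusted p = 0.342, edgeR). DN3758_c0_g1, a Kazal-domain row named after its values were seen, stood at 933, 183 and 175 CPM in control and at 5.18, 8.40 and 6.58 CPM in salt, and fell by 6.0 (SE 0.81, adjusted p = 0.00085, edgeR).

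A list of further protease domains, chosen for families with vacuolar or secreted members, held 35 rows, of which 33 were tested. The list goes by domain alone and includes rows annotated as other enzymes, among them DN5687_c1_g4 (carbamoyl-phosphate synthase), DN5239_c2_g2 (anthranilate synthase), DN5621_c0_g1 (acyl-CoA oxidase), DN5860_c1_g2 (acyl-protein thioesterase) and DN5771_c1_g4 (ureidoglycolate hydrolase), so its counts do not describe proteases alone. In salt 9 rose and 9 fell, 27.3% each and near the 29.1% and 28.7% of all tested rows, and 15 did not pass, with a median log2 fold change of 0.07. The smallest p was that of DN3386_c0_g1, a Peptidase_C26 row that KEGG names gamma-glutamyl hydrolase, an enzyme that trims folate polyglutamates, which rose by 2.71 from 17.5 ± 0.929 to 115 ± 18.5 CPM (adjusted p = 3.41e-05, edgeR). The highest mean FPKM over the 6 libraries was that of DN5720_c0_g1, a retroviral-type aspartyl protease. In salt its 48.1 to 90.7 FPKM lay under the 206 to 258 FPKM of DN5687_c1_g4. DN5720_c0_g1 stood at 1072, 469 and 493 CPM in control and at 47.3, 48.7 and 45.3 CPM in salt, and fell by 3.85 (SE 0.36, adjusted p = 0.000187, edgeR).

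The rows whose pattern over the 6 libraries was nearest to DN5182_c0_g1 were sought among the 5700 tested non-member rows at or above the median level, by Euclidean distance of centred log2(CPM + 1). DN4133_c0_g1, with an undescribed Chlamydomonas match, was nearest at 1.16, with 1386, 627 and 673 CPM in control and 1.45, 0.415 and 1.26 CPM in salt. DN5364_c0_g7 and DN5943_c3_g1, both without a match, followed at 2.04 and 2.14. The distances are a description of these libraries and carry no test.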

How the data were processed

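Per the labels' protocols, TRIzol was used to extract the total RNA of all 6 samples. The deposited table gives raw read counts per assembled row and FPKM values per library, per the file headers. The authors' mean FPKM, log2 fold change, p-value and FDR columns were deposited in the same table and were not used here. The labels name 2 sequencing platforms, Illumina and Proton, and which applies is not settled; the sources used here do not give the aligner, counter or assembly settings. Nucleotide and protein sequences of the rows were not used here.

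Members were found from the deposited Pfam column. The members, the gene lists and the comparisons were chosen with earlier results of these data known. Every member row may be named; values in every library are given for the 4 singled-out rows, the other member rows of their clusters, the 5 largest rises and falls among called rows and the 3 highest FPKM of each family, with 2 rows from each further list. Counts were tested with edgeR 4.0.16 in R 4.3.3: TMM factors, filterByExpr with a minimum count of 10 (a CPM of 0.482), a quasi-likelihood fit on condition, and Benjamini-Hochberg adjustment at 0.05 over all tested rows, or over all clusters for summed counts. Each standard error was taken from the F statistic, as the absolute log2 fold change over its square root. The procedure was tested on simulated data with fewer changed rows than were called here and no difference between replicates beyond a constant spread. That run therefore does not measure its error rate in these libraries. On the TMM-scaled CPM used throughout, a single count equals 0.0436 to 0.0629 CPM, depending on the library. Alternatives were the replicate block, other size factors, DESeq2 1.42.0, limma 3.58.1 on log2(FPKM + 0.1), other count minimums, each library left out, and replicates 2 and 3 alone. The deviations of same-numbered libraries from their group means correlated at 0.35, 0.14 and 0.25, each over 0.1. On that rule the numbers were taken as pairs in the replicate block, an alternative, whereas the main fit was on condition alone. However, control 2 correlated with salt 3 at 0.34, above its own number, so that replicates 2 and 3 were not told apart. Replicates of a group differed by more than sampling noise. The chi-square per row was 5.28 between controls 2 and 3, but 175 and 150 between control 1 and controls 2 and 3. Between salt libraries it was 33.8 to 59.3.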

Additional observations from a re-analysis of the deposited data

How the results depend on the processing

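Of 465 comparisons of the log2 fold change of a member row taken by domain alone with an alternative, 443 kept direction and side of the threshold, and 8 changed sign, none of them in a called row. These were DN2815_c0_g1 (0.00129) and DN3677_c0_g2 (0.0737) with replicates 2 and 3 alone, DN5851_c1_g2 (-0.115 with replicates 2 and 3 alone, -0.0239 to 0.194 with 1 library left out), DN5436_c1_g1 (-0.69 to 0.154 with 1 library left out), and DN5188_c0_g1 (0.0551), DN3530_c0_g1 (0.0037) and DN4753_c0_g6 (0.0356) with library totals. The cause was not tested. The 7 comparisons that lost a call all concern DN5154_c0_g7, including library totals (adjusted p = 0.0572) and limma on FPKM (adjusted p = 0.0964). DN3701_c0_g1 passed with the replicate block, DESeq2 size factors, DESeq2, without control replicate 1 and with replicates 2 and 3 alone (adjusted p = 0.00225 to 0.0483). The block on the pairing by replicate number changed the call of no other member row, and with it 4 subtilisin rows rose and 5 fell, and 9 papain rows rose and 3 fell. Leaving out rows with a domain on another predicted protein, an alternative chosen after seeing the data, left 1 papain row lowered in place of 3. That row was DN5154_c0_g7, and the step also took out the raised papain rows DN5411_c0_g2 and DN4811_c0_g2. The inhibitor list had 0 rows raised, 2 without a count filter, 4 with replicates 2 and 3 alone and 0 to 3 when 1 library was left out. Leaving out 1 library gave 5 to 12 rows of the further protease domains raised and 5 to 10 lowered. With 10 counts as the minimum, changes of the rows with few reads in control depend on counting error.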

Other observations

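Besides the 45 member rows, 10 rows were named as a subtilase, papain-like protease, cysteine proteinase or cathepsin in a description but carried neither domain. DN5761_c2_g1, a cathepsin Z match, had 6000, 4507 and 3679 counts in control and 5317, 5644 and 6047 counts in salt. DN4506_c2_g6, whose best match is an Eimeria subtilase, had 581, 647 and 606 counts in control and 465, 630 and 608 counts in salt. DN4004_c0_g1 and DN8946_c0_g1 are named cysteine proteinases but carry the UCH domain of ubiquitin-specific hydrolases, which cut ubiquitin from proteins. DN4004_c0_g1 went from 929, 932 and 798 in control to 1822, 1633 and 1823 in salt, and DN8946_c0_g1 had 927, 645 and 546 in control and 776, 727 and 833 in salt. The counts are not scaled for depth, and no test of these rows is given.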
